A study of Mus musculus with 2 samples.

Results

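The genes described are the nuclear-encoded members of the mitochondrial respiratory chain and ATP synthase, 84 of the 27998 genes in the count matrices. They were taken by symbol: Nduf genes of the a, b, c, s and v series, Sdha to Sdhd, all Uqcr genes, Cox genes of the 4 to 8 series and all Atp5 genes, without processed copies marked -ps. By name 37 belonged to complex I, 4 to complex II, 8 to complex III, 18 to complex IV and 17 to complex V. The libraries were made from C57BL/6 mice of 7 to 10 weeks, labelled wild type, from liver cells sorted by surface protein. The LSM library held CD45+Lin-Sca-1+Mac-1+ cells and the CD122CD49a library CD45+Lin-CD122+CD49a+ cells. Each gate was 1 library of single cells, with transcripts counted by unique molecular identifiers (UMIs). The sources used here do not say how many mice a library came from, and no value carries a replicate error. All intervals below are 95% intervals for counting error, and no p-value is given.

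The respiratory chain sits in the inner mitochondrial membrane. Complex I takes electrons from NADH and complex II from succinate, complex III passes them to cytochrome c, complex IV hands them to oxygen, and complex V makes ATP from the proton gradient that results. A small set of core subunits is encoded by mitochondrial DNA, and the far larger remainder by nuclear genes whose proteins are imported. Several complex IV subunits come in pairs of isoforms, 1 found in most tissues and 1 restricted to muscle, lung or testis. Cox6a2 is the form of subunit 6a known from heart and skeletal muscle, and Cox6a1 the form known from most other tissues. Not every matching symbol names a subunit of its complex. Ndufa4 is named for complex I but its protein is a subunit of complex IV, and Atp5sl encodes a protein that is no ATP synthase subunit. Cox7a2l is known from supercomplexes of complexes III and IV, a role that was not measured in these C57BL/6 mice. The sums below follow the names.

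Many nuclear respiratory genes are known targets of NRF1 and of the ETS factor GABP, so promoter stretches of 7 members were searched, from RefSeq on GRCm38.p6. Of these 2 held a match, in Cox6a1 and Uqcrh, and 5 held none, in Ndufa4, Cox7a2l, Ndufs5, Cox8a and Cox7c. Shown are both with a match, and Ndufa4 and Cox7a2l because the plasma cell and progenitor results below name them. These stretches lie on the minus strand, are written 5′ to 3′, stop short of annotated exons, and have matches to the NRF1 core GCATGCGC or its reverse GCGCATGC, or to the ETS letters CTTCCGG, in capitals.
Cox6a1, chr5:115348982-115349129: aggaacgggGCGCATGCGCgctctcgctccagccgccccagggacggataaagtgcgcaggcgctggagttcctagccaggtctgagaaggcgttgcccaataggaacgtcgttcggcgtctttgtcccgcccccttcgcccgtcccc
Uqcrh, chr4:116075072-116075268: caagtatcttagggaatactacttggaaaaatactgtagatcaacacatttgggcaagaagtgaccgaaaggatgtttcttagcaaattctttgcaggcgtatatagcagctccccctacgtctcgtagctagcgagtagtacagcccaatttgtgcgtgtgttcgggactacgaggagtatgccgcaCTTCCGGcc
Ndufa4, chr6:11907498-11907700: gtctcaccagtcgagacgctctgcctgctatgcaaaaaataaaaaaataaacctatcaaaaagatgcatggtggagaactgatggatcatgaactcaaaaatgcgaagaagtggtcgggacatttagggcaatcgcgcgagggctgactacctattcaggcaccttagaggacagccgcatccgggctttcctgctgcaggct
Cox7a2l, chr17:83514334-83514583: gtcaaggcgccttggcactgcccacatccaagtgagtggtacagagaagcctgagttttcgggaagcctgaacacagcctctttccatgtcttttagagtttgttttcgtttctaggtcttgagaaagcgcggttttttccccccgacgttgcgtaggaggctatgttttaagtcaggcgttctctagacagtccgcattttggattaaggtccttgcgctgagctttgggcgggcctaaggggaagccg
Cox6a1 carried overlapping NRF1 matches of both strands from 162 bases upstream of its start and Uqcrh the ETS letters from 10 bases upstream. The Ndufa4 and Cox7a2l stretches held neither. The Ndufa4, Ndufs5 and Cox7c stretches ended 48, 17 and 110 bases before the start, so matches nearer the start were not counted there. The Cox7a2l stretch lies within the annotated span of its gene, chr17:83501918-83517330, and not before its outermost start. Of the 84 members 66 had a promoter window of 300 bases, 250 before and 50 after the start, 71 windows in all. The ETS letters CCGGAAG or their reverse CTTCCGG occurred in 22.5% of the member windows and 8.86% of all 32851 windows. The NRF1 core in either direction occurred in 14.1% against 2.71%. The letters of YY1, AAGATGGC or GCCATCTT, occurred in 12.7% against 2.75%. For the secretory factor XBP1, TGACGTGG or CCACGTCA was in 0 member windows and in 0.676% of all. An E-box, CAGGTG or CACCTG, was in 21.1% against 20.2%. These are matches of letters in a window and not measured binding.

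Of the barcodes, 3074 LSM and 1257 CD122CD49a cells had at least 500 detected genes, with medians of 5100.5 and 1461 UMIs. The libraries shared 3 barcodes, of which 2 were kept. Transcripts of the gate proteins are sparse: in the LSM library 29.7% of cells had a UMI of Ly6a, which encodes Sca-1, and 14.5% of Itgam, which encodes the Mac-1 chain. In the CD122CD49a library 29.9% had Il2rb, which encodes CD122, and 6.52% had Itga1, which encodes CD49a, against 0.423% and 0.716% in the LSM library. Ptprc, which encodes CD45, was found in 70.4% and 84.1%, and Alb, the hepatocyte product albumin, in 0.195% and 0.636%.

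The 84 members together took 2.64% of LSM UMIs and 2.40% of CD122CD49a UMIs, 26445 and 24025 CPM, that is, UMIs scaled so that a library's or class's own total is 1000000. The median LSM cell had 52 members with a UMI and the median CD122CD49a cell 24. Over both libraries 72 members had at least 1000 UMIs and 79 at least 20. In each complex the member with the most UMIs was a small subunit or, in complex II, an electron carrier. Atp5e, the epsilon subunit of the ATP synthase rotor, stood at 1519 CPM in the LSM and 1986 CPM in the CD122CD49a library. Cox8a, the common form of a small complex IV subunit, stood at 1205 and 1297 CPM. Ndufa4 stood at 719 and 611 CPM, Uqcrh, the hinge protein of complex III, at 693 and 535 CPM, and Sdhb, the iron-sulfur subunit of complex II, at 183 and 146 CPM. These values count transcript ends and were not divided by length.

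At the other end 4 members had 0 UMIs in both libraries: Cox7b2 and Cox8c, known from testis, Cox8b, known from heart and muscle, and Ndufa4l2, known as a hypoxia-induced gene. A count of 0 allows up to 0.0976% of LSM cells and 0.239% of CD122CD49a cells with a UMI. Cox4i2, the form of subunit 4 known from lung, had 13 UMIs in the LSM library, 11 of them in 9 cells of the progenitor class described next, and 0 in the other library. Its common partner Cox4i1 had 8546 LSM UMIs. Cox7a1, the form of subunit 7a known from muscle, had 50 LSM UMIs in 49 cells against 7974 for Cox7a2. Cox6b2, the form of subunit 6b known from testis, had 266 LSM UMIs. Of these restricted forms Cox6a2 had the most, 2375 LSM UMIs.

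Cells were put in classes by 16 marker lists that hold no member: a cell went to the list with most different markers detected, at least 2, and was left out of classes when lists tied. The class names are those of the lists, and a class cut from such a score is a range rather than a cell type. In the LSM library 9 classes held at least 40 cells, 361 cells had no class and 229 were tied. Cells at exactly 2 markers, those nearest the cut, were 70 of 429 in the progenitor class, 152 of 392 in cDC1, 159 of 417 in cDC2, 69 of 331 in plasmacytoid dendritic cells, 14 of 124 in the basophil or mast class and 6 of 82 in the plasma cell class. In the CD122CD49a library 5 classes held at least 40 cells.

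Plasma cells, which secrete antibody, had the highest summed level of the LSM classes and the basophil or mast class the lowest. The sum was 39946 CPM in plasma cells (39406 to 40493, 82 cells) and 17703 CPM in the basophil or mast class (17184 to 18235, 124 cells), 2.26-fold apart. Plasmacytoid dendritic cells, the interferon-producing dendritic cells, came after plasma cells at 29442 CPM (29176 to 29710). In falling order followed cDC1 at 28407, CD3 lymphocytes at 27429, cDC2 at 26690, monocytes at 24191, progenitors at 23055 and mature dendritic cells at 22011 CPM. The intervals of CD3 lymphocytes and cDC2 overlapped, as they ran from 26722 to 28151 and from 26487 to 26895. Cell by cell, the middle 50% ran from 34664 to 45547 CPM in plasma cells, above the middle 50% of the other 8 classes. It ran from 25376 to 30380 in cDC1 and from 22153 to 28904 in cDC2, which overlapped, and from 15299 to 19947 in the basophil or mast class, which overlapped the 17308 to 24841 of mature dendritic cells. Median depth did not follow this order, at 5786 UMIs in plasma cells, 7660.5 in cDC1, 1890 in the basophil or mast class and 2342 in CD3 lymphocytes.

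**Figure D1:**
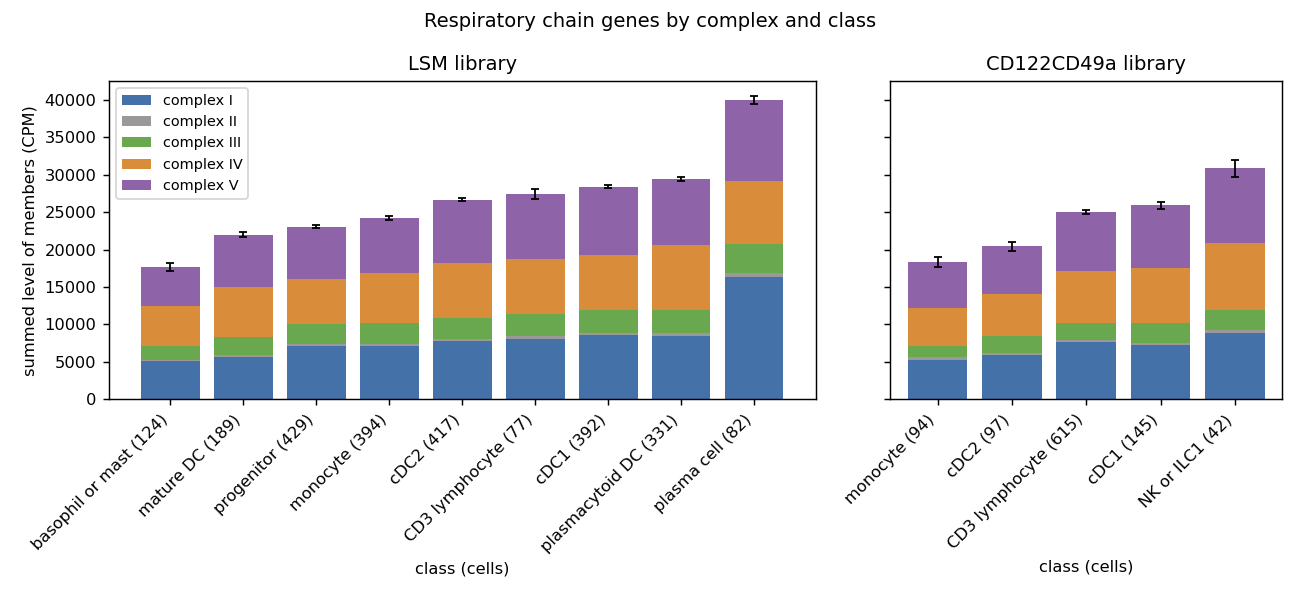
Summed level of the 84 members in CPM (vertical axis, from 0) in each class of the LSM library (left) and CD122CD49a library (right), stacked by complex, with the number of cells in brackets and a bar for the 95% counting interval of the sum. Plasma cells reached 39946 CPM, mostly through a taller complex I segment, and the basophil or mast class 17703 CPM. Ndufa4 is drawn in complex I, after its name.

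The complexes did not move in equal proportion. Complex I was 3.24-fold higher in plasma cells (16393 CPM) than in the basophil or mast class (5064 CPM), while complex IV spanned 1.58-fold, from 5427 CPM in that class to 8573 CPM in plasmacytoid dendritic cells. Complex I made up 41.0% of the sum in plasma cells and 25.9% in mature dendritic cells. Complex IV made up 21.1% in plasma cells and 30.7% in the basophil or mast class. These sums and shares count Ndufa4 in complex I, after its name. With Ndufa4 counted in complex IV, plasma cells held 12639 CPM of complex I and 12186 CPM of complex IV, so their contrast in shares rested largely on this gene. In the CD122CD49a library the complex I share lay between 28.2% and 30.8% in all 5 classes. There NK or ILC1 cells had the highest sum, 30852 CPM in 42 cells, followed by cDC1 at 25923, CD3 lymphocytes at 25033, cDC2 at 20427 and monocytes at 18304 CPM. Of the 42 NK or ILC1 cells 22 were at exactly 2 markers, as were 28 of 145 cDC1, 123 of 615 CD3 lymphocytes, 51 of 97 cDC2 and 44 of 94 monocytes. Cells with at least 3 of 8 proliferation genes made up 14.3% of the NK or ILC1 class, the largest share of the 5, and their part in its sum was not tested.

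**Figure D2:**
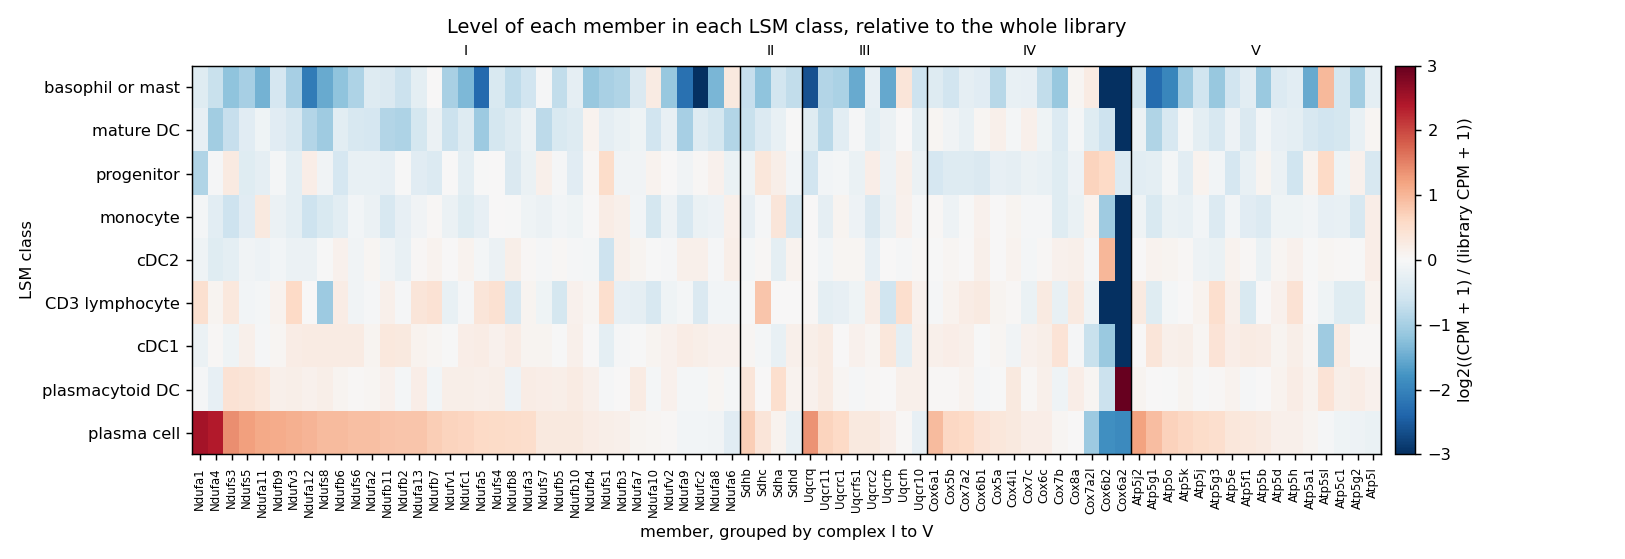
Level of 76 of the 77 members with at least 100 LSM UMIs (columns, grouped by complex) in the 9 LSM classes (rows), as log2 of (CPM + 1) over (CPM + 1) in the whole library, with colours cut off at 3 in either direction. The plasma cell row is red over most of complex I, the basophil or mast row is blue over most columns, and Cox6a2 is red in plasmacytoid dendritic cells.

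Member by member, 49 of those 77 stood highest in plasma cells and 50 stood lowest in the basophil or mast class. Plasmacytoid dendritic cells held the highest level of 8 members and cDC1 of 7. The same counts were not made over all genes, so they cannot be read as particular to the members. Cox7c, a small complex IV subunit, varied least among the members with at least 1000 UMIs, from 850.1 CPM in the basophil or mast class to 1163 in plasma cells, and Cox8a came next, from 1045 CPM in monocytes to 1447 in CD3 lymphocytes. Uqcrq, a small subunit of complex III, ranged from 68.5 CPM in the basophil or mast class to 1094 in plasma cells. Ndufa4 ranged from 347 CPM in mature dendritic cells to 3754 in plasma cells.

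Plasma cells were compared with all other LSM cells, a comparison chosen after the class sums had been seen. Called members are those with a CPM ratio of at least 1.5 in either direction among those with at least 100 UMIs. Of 77 members 32 were higher and 3 lower, where 15.5% of all genes were higher and 43.5% lower. Among genes with at least 1000 UMIs, which most members are, 31 of 70 members were higher and 15.8% of all genes. The members' median ratio was 1.28 and that of all genes 0.751. For all genes with at least 1000 UMIs the median log2 ratio was -0.312.

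Most of the higher members belonged to complex I, with 21 of 36 called higher and 0 lower. Its summed ratio was 2.14 (2.09 to 2.18), against 1.37 for complex II, 1.39 for complex III, 1.20 for complex IV and 1.32 for complex V. A pair of genes stood apart. Ndufa1, a small membrane-arm subunit of complex I, was at 1932 CPM in plasma cells and 288 CPM in other cells, a ratio of 6.72 (6.27 to 7.19). Ndufa4 was at 3754 and 618 CPM, a ratio of 6.07 (5.78 to 6.38). Neither rested on a few cells. Ndufa4 was detected in 78 of 82 plasma cells, its most abundant cell gave 4.50% of its plasma cell UMIs, and 71 of the 82 lay above the 95th percentile of other cells. The median plasma cell held 3330 CPM of it (middle 50%, 2233 to 5033) and the median other cell 535 CPM (290 to 808). For Ndufa1 the medians were 1920 and 249 CPM, and 71 of the 82 again lay above that percentile.

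Without both genes the complex I ratio was 1.58 (1.54 to 1.62), so the remaining 35 members carried part of the difference. With Ndufa4 counted in complex IV, where its protein sits, the complex I ratio was 1.79 and the complex IV ratio 1.60. Ndufs3, a core subunit of the matrix arm, followed with 274 against 98.3 CPM, a ratio of 2.79. Uqcrq was at 1094 against 405 CPM, a ratio of 2.70. Atp5j2, subunit f of the membrane part of ATP synthase, was at 1656 against 680.0 CPM, a ratio of 2.43. Cox6a1 was at 470.0 against 235 CPM, a ratio of 2.0. Ndufs1, the core subunit that carries several iron-sulfur clusters, was at 19.2 against 16.7 CPM, and the interval of its ratio, 0.55 to 2.15, held 1. The 3 lower members were all named for complex IV: Cox7a2l at 115 against 251 CPM, a ratio of 0.459, Cox6a2 at 38.4 against 150.3 CPM, and Cox6b2 with 2 UMIs in plasma cells. Of the 2355 Cox6a2 UMIs of other cells 1985 were in the plasmacytoid class. The median LSM class stood at 2.23 CPM of Cox6a2, below plasma cells.

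Other genes of energy metabolism were counted in the same comparison. The 13 mitochondrial-encoded subunits summed to 18862 CPM in plasma cells and 14931 CPM in other cells, a ratio of 1.26. Among 14 glycolysis genes 0 were called higher and 6 lower, the latter 42.9% and near the 43.5% of all genes, among them Hk2, a hexokinase, with a ratio of 0.23, and Ldha, which makes lactate, with 0.46. Of 27 assembly factors 5 were higher and 4 lower (18.5% and 14.8%, against 15.5% and 43.5% of all genes), led by Cox17, the copper chaperone of complex IV, at 700.2 against 323 CPM. The matrices hold 0 immunoglobulin segment rows, so the plasma cell total lacks those transcripts. Leaving Jchain, the antibody joining chain, out of the totals as well raised the complex I ratio to 2.36. The median plasma cell had 7 plasma cell markers and 2 B cell markers, and 22 Siglech UMIs in the class came from 2 cells.

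**Figure D3:**
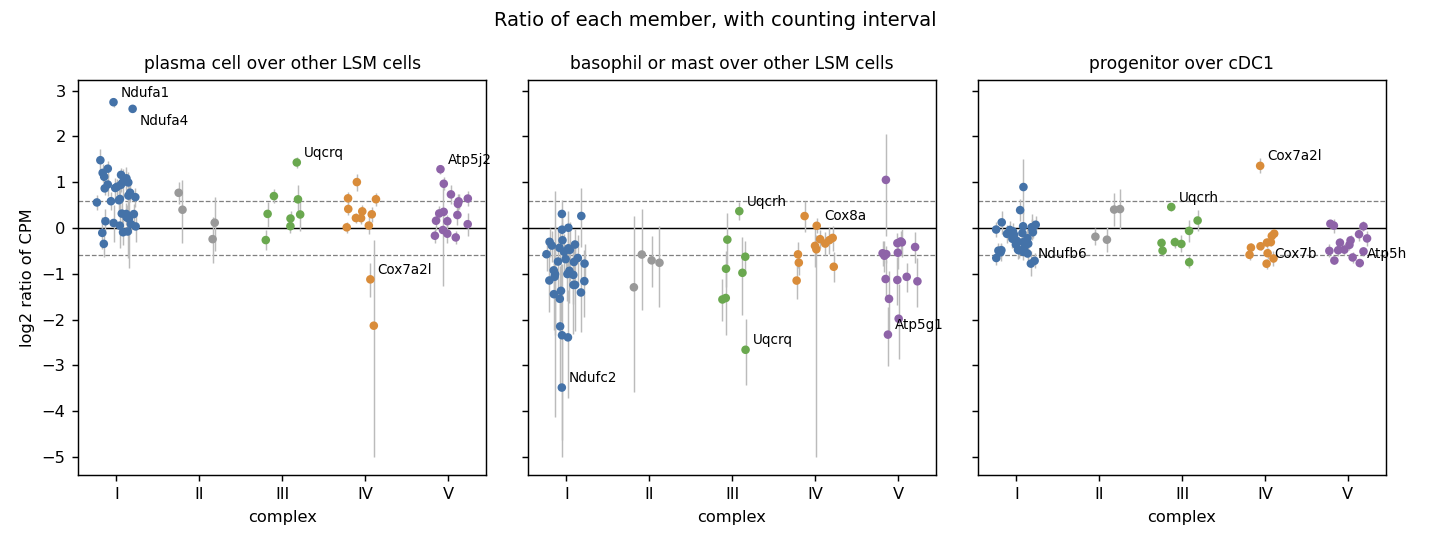
Ratio of CPM for each member with at least 100 UMIs (log2, vertical axis) by complex (horizontal axis, colours) in plasma cells over other LSM cells (left), basophil or mast cells over other LSM cells (middle) and progenitors over cDC1 (right). Points are members without Cox6a2, grey lines are 95% counting intervals cut off at a log2 of -5, dashed lines mark a ratio of 1.5 either way, and members with 0 UMIs in a class are set at 3 counts. Ndufa1 and Ndufa4 lie highest on the left, and most points of the middle panel lie below 0.

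The basophil or mast class had a summed ratio of 0.666 (0.646 to 0.686) to other LSM cells. For all genes with at least 1000 UMIs the median log2 ratio was -0.503, so abundant genes of any kind tended to be lower in this class. Of 77 members 44 were lower and 1 higher, where 39.0% of all genes were lower and 22.0% higher. Among genes with at least 1000 UMIs 40 of 70 members (57.1%) and 46.8% of all genes were lower, and 0 members and 14.4% of all genes were higher. The 1 higher member was Atp5sl, with 8 UMIs. Within the class levels diverged: Ndufc2, an accessory subunit of complex I, had 5 UMIs, 20.1 against 226 CPM, a ratio of 0.09 (0.03 to 0.21). Uqcrq had 17 UMIs, 68.5 against 433 CPM, a ratio of 0.16 (0.09 to 0.25). Atp5g1, which encodes the c-ring of ATP synthase, was at 88.6 against 446 CPM, and its paralog Atp5g2 at 350.5 against 735 CPM. Uqcrh, by contrast, was at 890.4 against 690.1 CPM, a ratio of 1.29 (1.12 to 1.47), and Cox8a at 1245 against 1204 CPM. By complex the ratio was highest for complex IV at 0.766, and complexes I and V stood at 0.633 and 0.624. Cytochrome c was lower still, as Cycs stood at 68.5 against 557 CPM. The 14 glycolysis genes had a summed ratio of 1.09, with Aldoa, an aldolase, at 1011 against 350.5 CPM and Gapdh at 286 against 847 CPM. The class's median of 1890 UMIs was the lowest of the 9 classes, and the part of depth in these ratios was not tested beyond thinning, which gave a summed ratio of 0.702.

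Plasmacytoid dendritic cells differed from other LSM cells mainly in 1 member. Their summed ratio was 1.13 (1.12 to 1.14), and of 77 members 1 was called higher and 1 lower, where 13.6% and 13.0% of all genes were. The higher member was Cox6a2, with 1249 CPM against 26.7 CPM, a ratio of 46.8 (41.9 to 52.3), and the lower was Cox6b2 with a ratio of 0.59. The next ratios among members with at least 50 CPM in the higher group were 1.49 for Sdha, the flavoprotein that oxidises succinate, 1.40 for Ndufs3, 1.35 for Ndufs5, an accessory subunit of complex I, and 1.33 for Sdhb. The lowest of the well-expressed members were Ndufa4 at 0.835, Ndufb8 at 0.884 and Cox7b at 0.899, the first 2 named for complex I and the last a small complex IV subunit. Through Cox6a2 the summed ratio of complex IV reached 1.24 although its median member stood at 1.03. The 13 mitochondrial-encoded genes had a summed ratio of 1.49. The glycolysis list had a summed ratio of 0.705 and 6 of 14 genes called lower, among them Tpi1, a triose isomerase, at 51.0 against 139.5 CPM.

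Cox6a2 lies at chr7:128205435-128206387 on the minus strand of GRCm38 and overlaps Itgad on the other strand. Itgad, an integrin chain, had 7 UMIs in the plasmacytoid class and 4 in cDC1. In the LSM library Cox6a2 was detected in 324 of 3074 cells, with up to 45 UMIs in a cell. Of its 2375 UMIs 1985 were in the plasmacytoid class, in 190 of 331 cells. The class itself was mixed. Its cells with exactly 2 markers held 90.0 CPM, those with 3 or 4 held 687 CPM, and those with 5 or more held 2358 CPM (2242 to 2479), where 134 of 148 cells had a UMI.

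Over all LSM cells the share with a Cox6a2 UMI was larger the more plasmacytoid markers were detected, up to 7. It was 1.59% of 1762 cells with 0 markers, 6.82% with 1, 20.4% with 2, 26.4% with 3, 57.1% with 4, 84.6% with 5, 86.0% with 6, 97.7% with 7 and 93.8% of 16 cells with 8. Thinning each cell to 1500 UMIs left 0.479% at 0 markers, 20.8% at 3 and 93.2% at 7. Siglech alone, a surface lectin that defines these cells, gave 26.8 CPM of Cox6a2 in cells without a Siglech UMI and 2477 CPM in the 145 cells with 5 or more. Cox6a1 moved far less. It stood at 253 CPM in all LSM cells with 0 markers. Within the plasmacytoid class it stood at 195 CPM with 2 markers, 227 CPM with 3 or 4 and 292 CPM with 5 or more. In the plasmacytoid cells with 5 or more markers Cox6a2 had 1541 UMIs and Cox6a1 191.

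**Figure D4:**
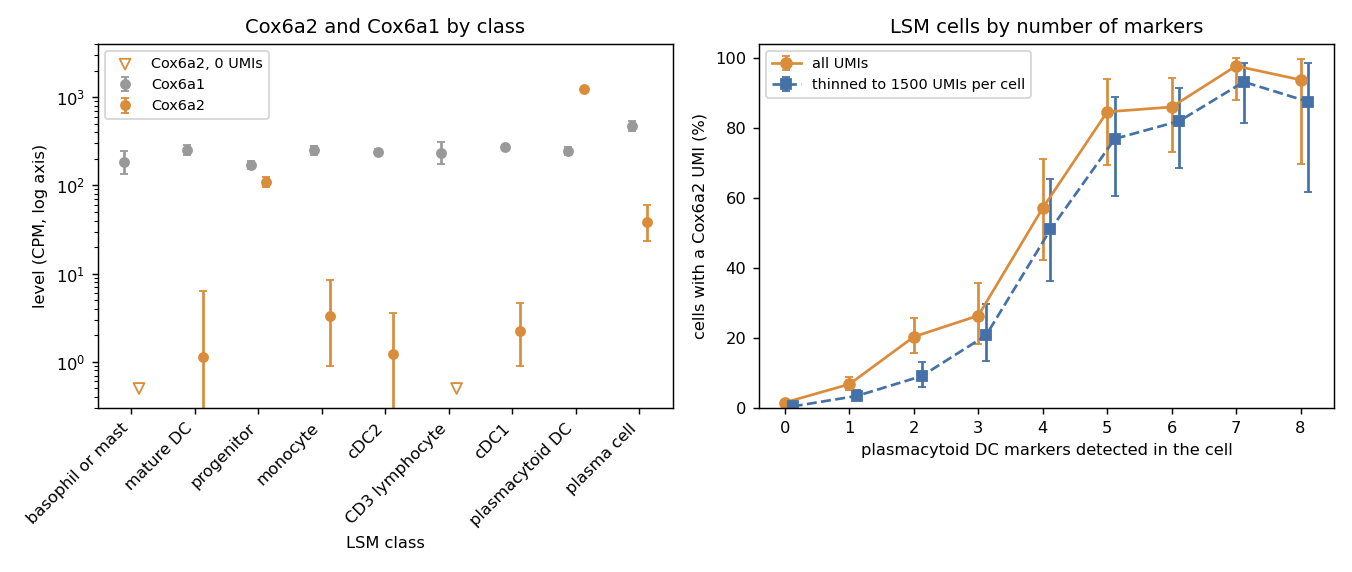
Left, Cox6a2 and Cox6a1 in the 9 LSM classes in CPM on a log axis, with 95% counting intervals and triangles for classes with 0 UMIs, drawn at an arbitrary low level. Right, the percentage of LSM cells with a Cox6a2 UMI by the number of plasmacytoid markers in the cell, with all UMIs and after thinning to 1500 UMIs per cell, with 95% exact binomial intervals. Cox6a2 is at 1249 CPM in plasmacytoid dendritic cells and 109 CPM in progenitors, and below 4 CPM in cDC1, cDC2, monocytes and mature dendritic cells.

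Other classes set the level to read this against. Basophil or mast cells and CD3 lymphocytes had 0 Cox6a2 UMIs in 124 and 77 cells. Taken as 3 over the number of cells, this allows up to 2.42% and 3.90% of cells with a UMI. These percentages limit cells with a detected UMI and not cells that express the gene, and these classes had the shallow medians of 1890 and 2342 UMIs. With 7 UMIs in cDC1, 3 in cDC2, 4 in monocytes and 1 in mature dendritic cells, their levels lay between 1.14 and 3.28 CPM. Plasma cells had 20 UMIs in 6 cells, 12 of them in 1 cell. Progenitors, marked by Cd34, Kit and the like, were the other class with Cox6a2, at 109 CPM (96.6 to 123), 264 UMIs in 78 of 429 cells (18.2%), beside 2 Siglech UMIs. After thinning 8.88% of progenitors kept a UMI.

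Within the progenitor class Cox6a2 was higher in cells with lymphoid transcripts. Cells with a UMI of Il7r, the interleukin-7 receptor chain, held 327 CPM (281 to 378, 82 cells) and those without 44.6 CPM (35.6 to 55.3, 347 cells), and thinned shares were 19.5% and 6.36%. Cells with Ly6d, an early lymphoid surface marker, held 762 CPM in 17 cells against 72.7 CPM in 412. For Dntt, the nucleotide-adding enzyme of antigen receptor rearrangement, the levels were 187 and 36.8 CPM. For the stem cell factors Hlf and Mecom the order of levels was the other way. Cells with Hlf held 41.4 CPM against 133 without. Cells with Mecom held 74.2 against 115 without, with overlapping intervals. Thinned shares were 7.96% and 9.21% with and without Hlf, and 6.38% and 9.19% with and without Mecom. The intervals of these shares overlapped in both splits. Cox6a1 moved less, at 190 and 164 CPM with and without Il7r.

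In the CD122CD49a library Cox6a2 had 60 UMIs in 10 of 1257 cells. Of these 45 UMIs were in 8 of the 10 plasmacytoid-class cells, 14 in a single NK or ILC1 cell with 8185 UMIs and 0 plasmacytoid markers, and 1 in a cell without a class. It had 0 UMIs in the 145 cDC1 and 615 CD3 lymphocytes of that library. Both gates thus had most of their Cox6a2 UMIs in the plasmacytoid class. Cox6b2 had a different pattern, with 33.6 CPM in LSM cDC2 (26.7 to 41.6) and 25.3 CPM in progenitors (19.3 to 32.5), and at most 10.3 CPM in the other LSM classes of at least 40 cells. Its common partner Cox6b1 stood at 666 CPM in the LSM library.

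Progenitors had a lower summed level than cDC1, the cross-presenting dendritic cells. The ratio was 0.812 (0.803 to 0.820), and of 75 members 3 were called higher and 10 lower, where 30.4% of all genes were higher and 14.5% lower. Among genes with at least 1000 UMIs 9 of 54 members (16.7%) and 21.5% of all genes were lower, and 1 member and 16.1% of all genes were higher. The members' median ratio was 0.814 and that of all genes 1.16. For all genes with at least 1000 UMIs the median log2 ratio was -0.034, a ratio just below 1 and nearer to that of the members. Complex V was lowest at 0.758, complexes I and IV stood at 0.832 and 0.823, and complex III at 0.873. For complex II the ratio of 0.955 had an interval that held 1 (0.871 to 1.05). With mitochondrial-encoded and ribosomal protein genes left out of the totals the summed ratio was 0.906. Ribosomal protein genes took 35.4% of progenitor and 29.2% of cDC1 UMIs.

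The 3 higher members were Cox6a2, with 264 against 7 UMIs and a ratio of 49.1 (23.5 to 123), Cox7a2l and Ndufs1. The Cox6a2 ratio was 19.2 after thinning and 87.1 without the highest doublet scores, so its size is loosely set. Cox7a2l was at 394 CPM in progenitors (369 to 420) and 154 CPM in cDC1 (140 to 168), a ratio of 2.56 (2.29 to 2.87). Progenitors held the highest Cox7a2l level of the 9 classes and plasma cells the lowest. Ndufs1 had 60 and 42 UMIs, a ratio of 1.86. Next came Uqcrh at 774 against 563 CPM, Sdhc, a membrane subunit of complex II, at 37.3 against 28.0 CPM, Sdha at 54.3 against 41.1 CPM and Ndufs3 at 125 against 95.5 CPM, with ratios of 1.37, 1.33, 1.32 and 1.31. The interval for Sdhc held 1 (0.981 to 1.81). Lowest were Cox7b at 386 against 664 CPM, Ndufb6, an accessory complex I subunit, at 65.9 against 113 CPM, and Atp5h, subunit d of the ATP synthase stalk, at 547 against 930 CPM, all with ratios of 0.58 to 0.59. Atp5h shares near-identical sequence with Gm10250, a row of the same matrix, so reads could be split between them.

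The mitochondrial-encoded genes ran the opposite way. Their sum was 22064 CPM in progenitors and 11314 CPM in cDC1, a ratio of 1.95 (1.92 to 1.98), with 12 of 13 genes called higher, against 30.4% of all genes. Cytochrome c followed the nuclear genes, and further: Cycs was at 264 against 975 CPM. Of 12 glycolysis genes 0 were higher and 4 lower (33.3%, against 14.5% of all genes), among them Hk2 with a ratio of 0.24, Pfkp, a phosphofructokinase, with 0.07 and Ldha with 0.47. Of 17 assembly factors 3 were higher and 1 lower, 17.6% and 5.88%, both below the shares of all genes.

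**Figure D5:**
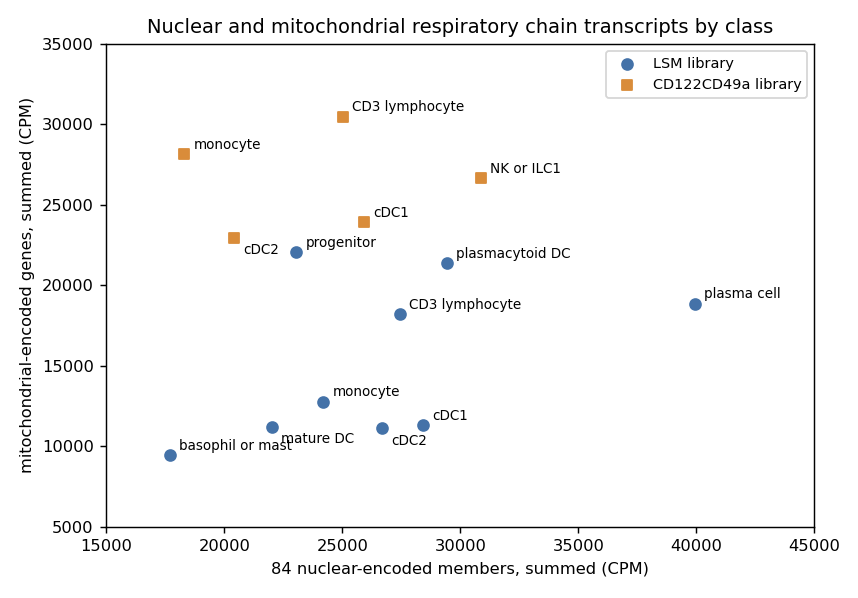
Summed CPM of the 84 nuclear-encoded members (horizontal axis) and of the 13 mitochondrial-encoded genes (vertical axis) in the 14 classes with at least 40 cells, 9 of the LSM library (circles) and 5 of the CD122CD49a library (squares). Axes do not start at 0. All CD122CD49a classes lie above all LSM classes on the vertical axis, and progenitors and plasmacytoid dendritic cells lie highest among LSM classes.

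Over the 14 classes the nuclear-encoded and the mitochondrial-encoded sums thus had different orders. LSM progenitors and cDC2 show it: progenitors had 23055 CPM nuclear and 22064 CPM mitochondrial, and cDC2 had 26690 and 11119 CPM. Across libraries the mitochondrial sum was 22954 CPM or more in each CD122CD49a class and 22064 CPM or less in each LSM class.

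Between whole libraries the summed member level was 1.10 times as high in LSM as in CD122CD49a (1.09 to 1.11). Of 79 members with at least 20 UMIs 9 were higher and 0 lower, where 19.7% of all genes were higher and 40.3% lower. Among genes with at least 1000 UMIs 8 of 72 members (11.1%) and 32.9% of all genes were higher, and 0 members and 13.9% of all genes were lower. Scaling by trimmed mean of M-values moved every gene by a log2 of 0.44, which gave a summed ratio of 1.49 and 44 members higher and 0 lower. The share of all genes called under that scaling was not counted, so the 44 cannot be read as particular to the members. With at least 1000 detected genes per cell the summed ratio was 1.02, so its size changed with the cells kept and with the scaling. Whether depth or the mix of cells lay behind the former was not tested. Beside Cox6a2 at 147 against 25.5 CPM, the largest ratios of members that reached 50 CPM in either library were 1.99 for Sdhd, the membrane anchor of complex II, 1.86 for Uqcrfs1, the Rieske iron-sulfur protein of complex III, 1.82 for Atp5f1, a stalk subunit, and 1.77 for Atp5c1, the rotor gamma subunit. The lowest by the same limit were 0.696 for Sdha, 0.731 for Ndufv3, an accessory subunit of complex I, 0.759 for Ndufa3, another, and 0.765 for Atp5e. Under that limit Cox6b2 had a ratio of 1.84 on 266 and 21 UMIs, and Ndufs1 0.667 on 271 and 59 UMIs. Within complex II the direction differed, with Sdhd at 81.4 against 40.8 CPM and Sdha at 47.9 against 68.9 CPM, though the latter's ratio lay above 1/1.5. With the scaling by trimmed mean every ratio was 1.35 times as high, which put Ndufa3 and Atp5e above 1. The 13 mitochondrial-encoded genes summed to 15058 against 28423 CPM, a ratio of 0.530 (0.525 to 0.534), with 12 of 13 lower.

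The cell mix of the gates differed, so the libraries were also compared within classes. In CD3 lymphocytes, 77 LSM and 615 CD122CD49a cells, the summed ratio was 1.10 (1.06 to 1.13). Of 65 members 9 were higher and 0 lower, where 20.6% of all genes were higher and 28.3% lower. With at least 1000 detected genes per cell the ratio was 0.916 and after thinning 1.01, so the direction was not stable in this class. Ndufb10, an accessory complex I subunit, was at 293 against 172 CPM, a ratio of 1.71 (1.25 to 2.31), Uqcrfs1 at 168 against 99.1 CPM and Atp5h at 1125 against 703 CPM. The summed ratio was 1.10 in cDC1, 1.31 in cDC2 and 1.32 in monocytes. For all genes with at least 1000 UMIs the median log2 ratio was 0.294, 0.330 and 0.314 in these classes. Abundant genes of any kind thus tended to be higher in LSM there, and these sums cannot be read as particular to the members. The mitochondrial-encoded ratio was 0.598 in CD3 lymphocytes, 0.473 in cDC1, 0.484 in cDC2 and 0.454 in monocytes. Gate, library and depth cannot be told apart in these ratios.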

How the data were processed

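Single-cell RNA libraries of 2 sorted liver populations, 1 library each, were analysed. The deposited matrices hold raw UMI counts per gene and cell and name software 3.0.1, per the file headers. The submitters' processing notes list GRCm38, STAR and Seurat 2.3.0 and do not say what each served for. The members and lists were chosen with earlier results of these data known. Barcodes with at least 500 detected genes were kept, 3074 of 3133 and 1257 of 1655, with 16187182 and 2351659 UMIs. Doublets were not removed in the values reported, and an alternative removed the barcodes with the highest Scrublet scores. Counts were summed over cells and scaled to CPM. Ratios carry exact conditional intervals and shares exact Clopper-Pearson intervals, for counting error only. The share of cells that a count of 0 allows was taken as 3 over the number of cells. A count of 0 was set at 3 counts for ratios. A gene was called at a 1.5-fold ratio with at least 20 UMIs between libraries and 100 UMIs between classes. Cells are not replicates, and with 1 library per gate no test was possible.

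Named members were both forms of each isoform pair, the members of each complex with the most UMIs, the 5 largest ratios in each direction at 50 CPM or more, and members at 0. The plasma cell and basophil or mast comparisons, and the genes named within them, were added after the data were seen, as were the splits of progenitors. Of the 84 members 8 had a transcript of another gene at 95% identity or more over at least 200 of their last 300 bases (Atp5h, Atp5k, Atp5l, Atp5o, Cox6a1, Cox7c, Ndufb11 and Ndufs3), so their counts are less certain, and 37 were overlapped by another gene in GENCODE release M21. Python 3.11.15, numpy 2.4.6, scipy 1.17.1, pandas 2.3.3, scanpy 1.11.5 and, for scaling by trimmed mean of M-values, edgeR 4.0.16 in R 4.3.3 were used. Values of 1 member are not reported here by name, though it is part of the sums and counts. Scripts were tested on simulated data.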

Additional observations from a re-analysis of the deposited data

Results flagged for a closer look

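Barcodes under 500 detected genes entered no comparison. The 59 such barcodes of the LSM library held 502 member UMIs of 38888, a sum of 12909 CPM, and the 398 of the CD122CD49a library held 4522 of 280644, a sum of 16113 CPM. Both are listed because signal appears in data left out of the comparisons. Both lie below the sums of the kept cells, 26445 and 24025 CPM.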

How the results depend on the processing

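No paired analysis was possible because each gate is 1 library. With 13 alternatives run, the summed ratio between libraries (1.10) was 1.02 with at least 1000 detected genes, 1.14 with all barcodes, 1.13 with means over cells, 1.03 thinned to 1500 UMIs and 1.49 with trimmed mean scaling. Within CD3 lymphocytes (1.10) it was 0.916 with at least 1000 genes, the only reversal among these, 1.13 with means over cells, 1.01 thinned and 1.17 with trimmed mean scaling. The progenitor to cDC1 ratio (0.812) was 0.794 with means over cells and 0.906 without mitochondrial-encoded and ribosomal protein genes in the totals. It was 0.801 with Ndufa4l2, Atp5s, Atp5sl and Cox7a2l left out of the members, an alternative that kept all accessory subunits. The Cox6a2 ratio in plasmacytoid dendritic cells (46.8) was 65.5, 55.9 and 55.3 with means over cells, thinning and at least 3 markers. The plasma cell complex I ratio (2.14) was 2.26 with means over cells, 2.02 without mitochondrial-encoded and ribosomal protein genes, 2.28 thinned, 2.20 with at least 3 markers and 2.36 without Jchain. The mitochondrial-encoded library ratio (0.530) was 0.640 with at least 1000 genes, 0.486 with all barcodes, 0.505 with means over cells, 0.578 thinned and 0.718 with trimmed mean scaling. Members higher in LSM (9) numbered 44 with trimmed mean scaling, which moved every gene alike and for which no share of all genes was counted. Members lower (0) numbered 2 with at least 1000 genes, means over cells and thinning, and 1 with all barcodes, without mitochondrial-encoded and ribosomal protein genes, without the highest Scrublet scores (76 and 13 barcodes) and with at least 5 UMIs per gene. The cause was not tested. With 1 library per gate no value has a replicate check. Thinning left out 108 LSM and 655 CD122CD49a cells, and members under 100 UMIs in a class comparison were not counted.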

Other observations

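Cells with at least 3 of 8 proliferation genes had a higher summed member level than other cells of their class in each of the 5 classes that held at least 10 of them. In LSM progenitors the sums were 28747 CPM in 25 such cells and 22358 CPM in 404 others, a ratio of 1.29 (1.25 to 1.32), with median depths of 9625 and 4926.5 UMIs. The ratio was 1.23 in plasmacytoid dendritic cells and 1.09 in cDC1 of that library. In the CD122CD49a library it was 1.36 in CD3 lymphocytes and 1.20 in cDC1. Depth moved with this difference in all 5, and its part was not tested.

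Glycolysis and respiratory chain sums had different orders over the LSM classes. The 14 glycolysis genes summed to 2196 CPM in plasmacytoid dendritic cells, the lowest of the 9 classes, and to 2354 CPM in plasma cells, the classes with the highest member sums. They summed to 3392 CPM in cDC1, the highest, and to 3280 CPM in the basophil or mast class, which had the lowest member sum. The 13 tricarboxylic acid cycle genes summed to 532 CPM in that class and to 963 CPM in cDC2. Fh1, fumarase, stood at 4.03 CPM in the basophil or mast class and 77.2 CPM in other LSM cells. The class held 248203 UMIs in all, so its Fh1 level lies at the floor of counting and the size of this difference is loosely set.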
